A study of Homo sapiens with 6 samples.

Results

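The 10 nuclear genes that set how much mitochondrial DNA a cell keeps and transcribes were followed through RNA-seq counts from a triple-negative breast cancer line. They are ESRRA, TFAM, PPARGC1A, PPARGC1B, NRF1, POLG, POLG2, POLRMT, TFB1M and TFB2M. They were taken by symbol from a list, not by their values, and all 10 of the 10 were found among the 24462 distinct gene symbols of the deposited tables. The symbol NRF1 stands here for nuclear respiratory factor 1. The study is named for ELK3, an ETS-family transcription factor, and for mitochondrial dynamics in breast cancer cells facing natural killer cells.

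The 6 libraries came from cells labelled MDA-MB-231 and form 3 groups of 2. The ELK3-labelled libraries are labelled as an ELK3 knockdown collected 48 hours after transfection with 1 µg of pLenti-cMyc-DDK-ELK3, a plasmid for re-expression of ELK3. The vector-labelled libraries are labelled as the same knockdown collected 48 hours after 1 µg of the empty plasmid pLenti-cMyc-DDK. The control libraries are labelled as MDA-MB-231 cells infected with a control retrovirus, with no plasmid dose given. How the knockdown was made, whether the knockdown line is a clone, and whether replicates are separate cultures are not given in the sources used here. The p-values therefore measure the spread between these libraries, which may be technical.

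Mitochondria carry their own small genome, which a handful of nuclear-encoded proteins copy and transcribe. The coactivators PGC-1alpha (PPARGC1A) and PGC-1beta (PPARGC1B) bind transcription factors such as the estrogen-related receptor ERRalpha (ESRRA) and NRF1 and so raise the output of genes for respiration. Inside the organelle, TFAM packages the DNA and bends its promoters, TFB2M and the RNA polymerase POLRMT start transcription, TFB1M methylates the small ribosomal RNA, and POLG with its accessory subunit POLG2 replicates the genome.

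ELK3 ran against the plasmid labels. On the scale of CPM, counts divided by a TMM-scaled library total, ELK3 stood at 20.35 and 22.65 CPM in the ELK3-labelled libraries, 758.9 and 697.2 CPM in the vector-labelled libraries, and 128.6 and 123.9 CPM in the control libraries. The column headings inside the deposited tables name the plasmid groups the other way round from the sample titles. Groups are called by their titles throughout, and if the titles were exchanged, the first and second comparisons below would trade places and the third would change sign. Library totals ran from 4884483 to 9131214 counts, and a count of 3 was worth 0.319 to 0.645 CPM. Of 16 markers chosen for MDA-MB-231, 16 were lower than control in each plasmid group (median log2 fold change -3.31 in ELK3-labelled and -3.14 in vector-labelled libraries). Of 14 tested markers of HEK293, a line from embryonic kidney, 11 were higher in each plasmid group (medians 2.70 and 2.49). Of these 14, 1 was lower in the ELK3-labelled and 0 in the vector-labelled libraries. Over all genes, 30.8% were lower and 31.8% higher in ELK3-labelled than in control libraries, and 35.3% and 37.0% in vector-labelled libraries. For every result against the controls, a difference of cell line, the labelled knockdown and the plasmid transfection cannot be told apart. These markers also differed between the plasmid groups, where 7 of the 14 HEK293 markers were higher and 2 lower in ELK3-labelled than in vector-labelled libraries (median 0.28) and 1 of the 16 MDA-MB-231 markers was higher and 5 lower (-0.11). The summed level of the HEK293 markers was 840.4 and 837.4 CPM in the ELK3-labelled, 414.2 and 415.8 CPM in the vector-labelled and 125.3 and 117.6 CPM in the control libraries. Liver transcripts were present in every library, with the summed level of 16 genes at 11230 and 11780 CPM in the ELK3-labelled, 14910 and 13890 CPM in the vector-labelled and 13770 and 14230 CPM in the control libraries, and none of the 16 at 0 in every library. Against the controls, 15 of these 16 were lower in the ELK3-labelled libraries and 0 passed in the vector-labelled libraries. The summed level of 16 lymphocyte markers, none at 0 in every library, was 303.2 and 325.3 CPM in the ELK3-labelled, 418.4 and 391.4 CPM in the vector-labelled and 386.7 and 392.4 CPM in the control libraries. The part of these markers and transcripts in the levels below was not tested.

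All 10 regulators passed the filter on low counts and were tested in a fit over 15386 genes (edgeR quasi-likelihood, two-sided, Benjamini-Hochberg adjustment over all genes, called at an adjusted p under 0.05). Against the controls, the vector-labelled libraries had 7 regulators lower (background over all genes 35.3%), 2 higher (37.0%) and 1 not called, with a median log2 fold change of -0.82 against 0.05 over all genes. The ELK3-labelled libraries had 4 lower (30.8%), 1 higher (31.8%) and 5 not called, with a median of -0.15 against 0.02 over all genes. Between the plasmid groups, 5 regulators were higher in the ELK3-labelled libraries (30.0%), 1 was lower (29.6%) and 4 were not called, with a median of 0.45 against -0.02. The share of all genes called in either direction was 72.3%, 62.6% and 59.6%, so a call by itself was common. The libraries of the 2 groups did not overlap for 10 of the 10 regulators in vector-labelled against control (84.6% of all genes), for 7 in ELK3-labelled against control (80.2%) and for 7 in ELK3-labelled against vector-labelled (79.4%). Over all genes, 4891 were higher and 4742 lower in ELK3-labelled than in control libraries, and 5911 and 3763 with library totals in place of TMM. These 3 comparisons share libraries and are not independent of each other.

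**Figure D1:**
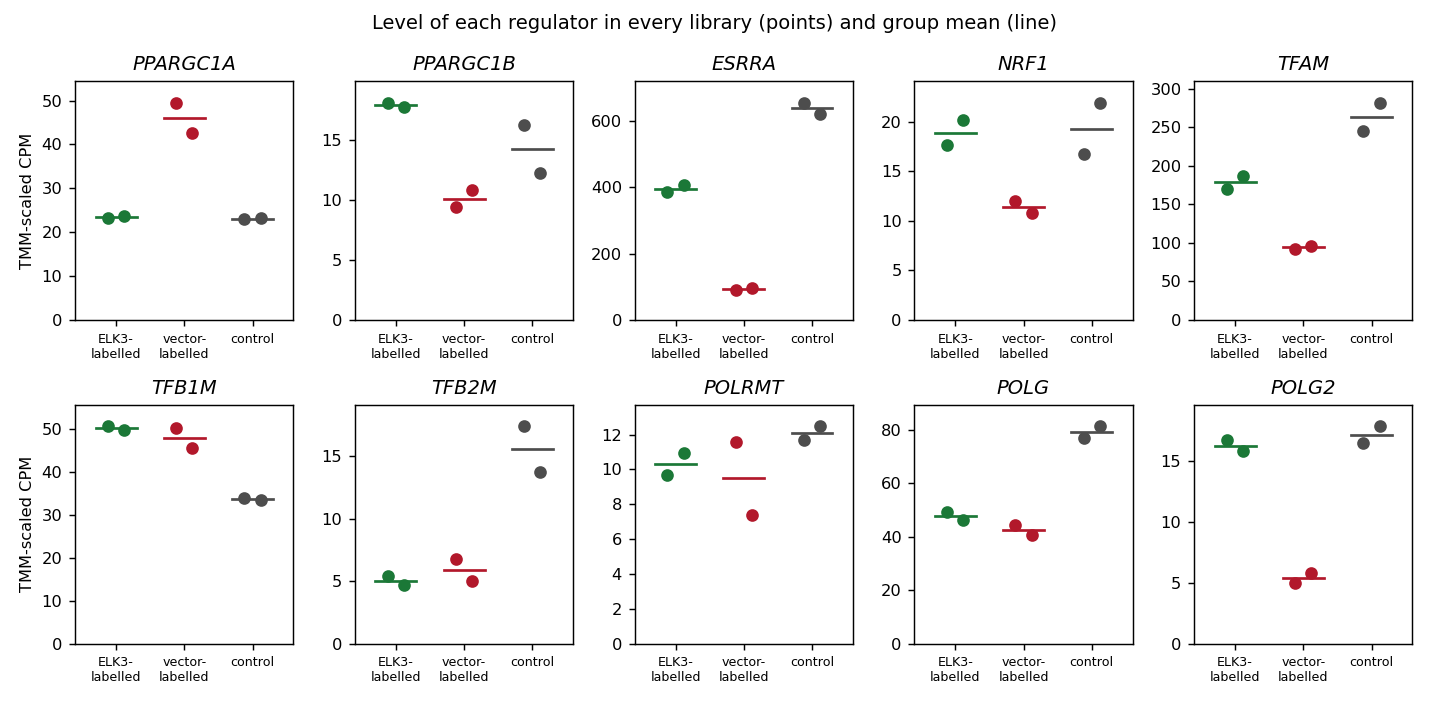
TMM-scaled CPM of each regulator (vertical axes, each from 0) in the ELK3-labelled, vector-labelled and control libraries; points are libraries and lines are group means of 2. ESRRA, TFAM, NRF1, PPARGC1B and POLG2 were lowest in the vector-labelled libraries, PPARGC1A was highest there, and TFB2M and POLG were highest in the controls.

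Promoter sequence is shown for 6 of the regulators because those with the NRF1 motif include genes that moved in opposite directions, and because TFB1M and TFB2M, which arose from a common ancestor, also parted. RefSeq windows on GRCh38.p14 ran from 250 bases before to 50 bases after an annotated start. They were matched for 9 of the 10 genes, with 2 windows for PPARGC1A. NRF1 had no entry. The PPARGC1B window (chr5:149771690-149771989) lies inside the gene, which starts at 149730298 in the GENCODE annotation used for gene positions. The PPARGC1A windows lie at chr4:24472856-24473155, outside the GENCODE span of PPARGC1A (23755041 to 23904089), and at chr4:23881052-23881351, within it. The TFAM window (chr10:58385160-58385459) also lies inside its gene, which starts at 58385022 in the GENCODE annotation. None of these windows covers the GENCODE start of its gene, so motifs at those starts were not examined. Capitals mark the ETS motif CCGGAAG and the palindromic NRF1 motif, read on both strands and allowed to overlap other motifs. The windows lie at chr11:64305274-64305573 (plus strand), chr10:58385160-58385459 (plus strand), chr17:64497005-64497304 (minus strand), chr19:633488-633787 (minus strand), chr6:155314435-155314734 (minus strand) and chr1:246566212-246566511 (minus strand), in the order printed.
ESRRA: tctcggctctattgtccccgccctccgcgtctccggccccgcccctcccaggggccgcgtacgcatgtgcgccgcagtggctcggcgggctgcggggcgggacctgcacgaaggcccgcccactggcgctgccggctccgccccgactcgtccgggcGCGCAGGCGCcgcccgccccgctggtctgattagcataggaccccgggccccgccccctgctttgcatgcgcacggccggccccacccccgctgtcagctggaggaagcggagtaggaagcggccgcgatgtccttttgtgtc
TFAM: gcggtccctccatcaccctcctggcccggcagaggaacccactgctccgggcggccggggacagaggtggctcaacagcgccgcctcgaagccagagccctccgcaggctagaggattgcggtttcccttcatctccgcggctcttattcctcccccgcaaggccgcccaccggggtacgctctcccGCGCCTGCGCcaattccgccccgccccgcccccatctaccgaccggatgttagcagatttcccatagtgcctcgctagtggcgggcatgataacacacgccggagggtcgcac
POLG2: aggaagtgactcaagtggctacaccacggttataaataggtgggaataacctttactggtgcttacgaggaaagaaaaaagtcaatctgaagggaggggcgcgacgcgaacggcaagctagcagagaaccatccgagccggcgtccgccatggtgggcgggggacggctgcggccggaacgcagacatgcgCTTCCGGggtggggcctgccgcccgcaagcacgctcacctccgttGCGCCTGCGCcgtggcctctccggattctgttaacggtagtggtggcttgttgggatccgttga
POLRMT: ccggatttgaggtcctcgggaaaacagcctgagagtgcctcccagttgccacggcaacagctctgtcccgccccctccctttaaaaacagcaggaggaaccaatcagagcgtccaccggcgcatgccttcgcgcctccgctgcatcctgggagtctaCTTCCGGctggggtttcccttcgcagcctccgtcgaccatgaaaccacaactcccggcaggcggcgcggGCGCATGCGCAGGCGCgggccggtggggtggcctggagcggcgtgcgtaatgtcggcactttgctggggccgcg
TFB1M: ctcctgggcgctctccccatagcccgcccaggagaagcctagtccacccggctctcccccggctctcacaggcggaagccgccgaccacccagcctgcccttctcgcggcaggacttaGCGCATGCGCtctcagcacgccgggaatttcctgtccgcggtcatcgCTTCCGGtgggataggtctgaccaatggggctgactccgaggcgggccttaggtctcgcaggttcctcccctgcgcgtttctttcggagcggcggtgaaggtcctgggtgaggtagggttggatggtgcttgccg
TFB2M: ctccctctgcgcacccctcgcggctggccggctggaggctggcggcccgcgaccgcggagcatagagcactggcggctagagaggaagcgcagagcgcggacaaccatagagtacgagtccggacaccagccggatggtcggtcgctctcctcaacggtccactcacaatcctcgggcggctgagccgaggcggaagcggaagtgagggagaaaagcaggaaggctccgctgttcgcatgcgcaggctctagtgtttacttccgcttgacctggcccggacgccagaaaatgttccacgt

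The NRF1 motif was present in 5 of the 10 windows, those of ESRRA, TFAM, POLG2, POLRMT and TFB1M, and in 5.78% of all 35116 windows of this length. The ETS motif was present in 3 of the 10, those of POLG2, POLRMT and TFB1M, against 10.3% of all windows. The SP1 motif GGGCGG was present in 8 of the 10, against 45.0%, with 8 matches in the ESRRA window. The ERR motif TNAAGGTCA, the YY1 motif AAGATGGCG and the SRF CArG box had no match in these windows, and 0.951%, 1.75% and 1.29% of all windows held them. The windows were also rich in G and C, with a median of 66.2% against 58.7% over all windows. A match in letters is a description and not a binding site. Only exact matches were counted, so a window without a match may still hold a variant of the motif. Of the 3 genes with the ETS motif, POLG2 was lower in the vector-labelled libraries than in controls, TFB1M was higher and POLRMT was not called.

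**Figure D2:**
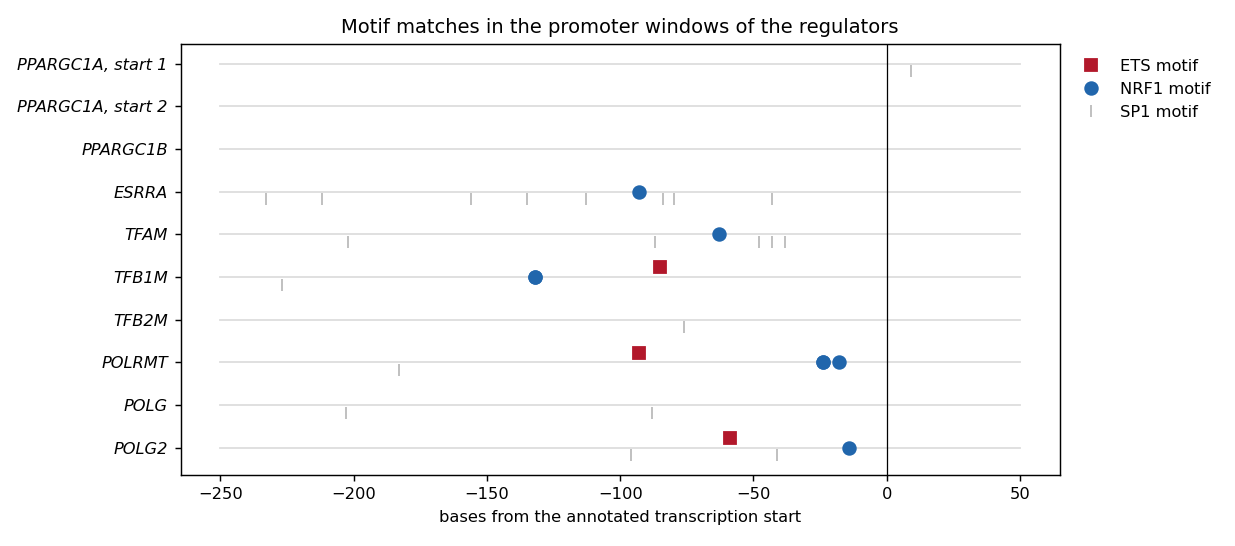
Positions of motif matches (horizontal axis, bases from the annotated transcription start, 0 marked) in the promoter windows of 9 regulators, 1 row per window. NRF1 motifs lie upstream of the start in 5 windows and ETS motifs in 3, and the windows of PPARGC1A, PPARGC1B, POLG and TFB2M hold neither. The windows of PPARGC1A, PPARGC1B and TFAM do not cover the GENCODE starts of these genes, where motifs were not examined.

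The coactivator genes moved in opposite directions. PPARGC1A had 23.22 and 23.6 CPM in the ELK3-labelled libraries, 49.5 and 42.62 CPM in the vector-labelled libraries, and 23.0 and 23.22 CPM in the control libraries. The vector-labelled libraries thus stood apart above the other 4. PPARGC1A was 2.002-fold higher in vector-labelled than in control libraries (log2 fold change 1.00 ± 0.14 SE, adjusted p = 1.57e-07), where 0 of 16 liver genes were called. It was lower in ELK3-labelled than in vector-labelled libraries (-0.98 ± 0.13, adjusted p = 1.03e-07), where 16 of 16 liver genes were lower too, at a median of -0.33. ELK3-labelled and control libraries overlapped, with a difference of 0.02 (95% interval -0.29 to 0.33, adjusted p = 0.916). PPARGC1A is also active in liver, and the share of its reads that comes with the liver transcripts was not tested.

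PPARGC1B, the paralogue of PPARGC1A, had its lowest levels where PPARGC1A was highest. It stood at 18.13 and 17.76 CPM in the ELK3-labelled, 9.40 and 10.81 CPM in the vector-labelled and 16.31 and 12.26 CPM in the control libraries. The ELK3-labelled libraries lay above all others, and the controls differed from each other more than the libraries of either plasmid group did. PPARGC1B was higher in ELK3-labelled than in vector-labelled libraries (0.84 ± 0.19, adjusted p = 0.000351), a call that held under the 15 alternatives run. Its lower level in vector-labelled than in control libraries (-0.51 ± 0.21, adjusted p = 0.0318) lost its call under 5 of them: without control replicate 1 (adjusted p = 0.319), without vector-labelled replicate 1 (0.181), with DESeq2 (0.12), with library totals (0.115) and with a filter of 10 CPM (0.0809). ELK3-labelled and control libraries were not called different (0.32 ± 0.19, adjusted p = 0.133), but passed with library totals (0.0275) and without control replicate 1 (0.0497).

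ESRRA, the nuclear receptor through which PGC-1 coactivators reach many respiratory genes, had the widest range of levels among the 10. It had 385.8 and 406.7 CPM in the ELK3-labelled libraries, 91.37 and 96.45 CPM in the vector-labelled libraries, and 655.4 and 621.5 CPM in the control libraries. The 3 groups did not overlap and all neighbours in that order differed. ESRRA was 6.81-fold lower in vector-labelled than in control libraries (-2.77 ± 0.09, adjusted p = 1.55e-23) and 1.61-fold lower in ELK3-labelled than in control libraries (-0.69 ± 0.08, adjusted p = 4.41e-09). Between the plasmid groups it was 4.23-fold higher in the ELK3-labelled libraries (2.08 ± 0.09, adjusted p = 1.89e-19), and 99.3% of the tested genes had a fold change at or below it.

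Some of the reads behind ESRRA may not be its own. In the GENCODE 29 annotation of GRCh38, ESRRA runs on the plus strand of chromosome 11 from 64305572 to 64316743, and TRMT112, the partner subunit of several methyltransferases, runs towards it on the minus strand from 64318084 to 64316460. Their last exons share 284 bases, and the kit is labelled Quant-Seq, a name used for libraries read at transcript 3′ ends, although whether these libraries were of that kind is not settled by the labels. TRMT112 had 643.1 and 659.5 CPM in the ELK3-labelled, 158.2 and 144.5 CPM in the vector-labelled and 978.9 and 1039 CPM in the control libraries. The count of ESRRA per count of TRMT112 was 0.600 and 0.617 in the ELK3-labelled, 0.578 and 0.668 in the vector-labelled and 0.670 and 0.598 in the control libraries. The ratio thus overlapped between all 3 groups while each gene alone separated them. The log2 fold changes of TRMT112 were -2.73 ± 0.09 for vector-labelled against control, -0.63 ± 0.08 for ELK3-labelled against control and 2.10 ± 0.09 for ELK3-labelled against vector-labelled. Of the 12356 genes with a mean of at least 5 CPM, TRMT112 was the nearest to ESRRA in pattern over the 6 libraries (distance 0.198 between log2 CPM centred on each gene, Pearson r = 0.998 as a description). Whether the counting used strand is not given in the sources used here, and without strand, reads within the shared bases, 284 of the 2448 exonic bases of ESRRA, cannot be told apart from those of TRMT112. What share of the ESRRA count falls there was not tested. EXOSC4, an exosome subunit, was also among the 3 nearest (0.276).

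**Figure D3:**
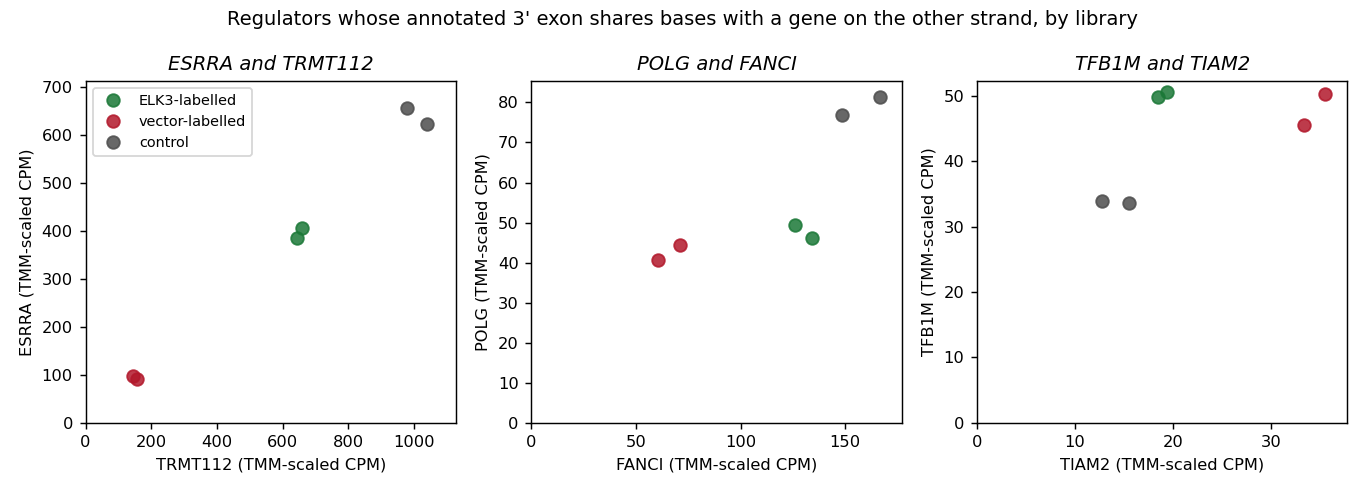
TMM-scaled CPM of ESRRA, POLG and TFB1M (vertical axes, from 0) against that of the gene on the other strand whose exons share bases with their 3′ ends (horizontal axes, from 0); each point is 1 library, coloured by group. ESRRA and TRMT112 fall along a line through all 3 groups, whereas POLG and FANCI, and TFB1M and TIAM2, do not.

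NRF1, which activates nuclear genes of respiration and mitochondrial transcription, followed PPARGC1B in being lowest in the vector-labelled libraries. It had 17.65 and 20.2 CPM in the ELK3-labelled, 12.05 and 10.81 CPM in the vector-labelled and 16.73 and 21.93 CPM in the control libraries. The vector-labelled libraries lay below the other 4, which overlapped. NRF1 was 1.68-fold lower in vector-labelled than in control libraries (-0.75 ± 0.20, adjusted p = 0.00108) and higher in ELK3-labelled than in vector-labelled libraries (0.73 ± 0.18, adjusted p = 0.00101). ELK3-labelled and control libraries differed by -0.02 (95% interval -0.38 to 0.34, adjusted p = 0.931), a value whose sign turned under 4 alternatives.

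TFAM, the packaging protein whose amount tends to track that of mitochondrial DNA, was lower than control in both plasmid groups. It had 170.6 and 187.2 CPM in the ELK3-labelled libraries, 91.96 and 96.45 CPM in the vector-labelled libraries, and 244.9 and 281.9 CPM in the control libraries. The 3 groups did not overlap, and their order was that of ESRRA. TFAM was 2.80-fold lower in vector-labelled than in control libraries (-1.48 ± 0.09, adjusted p = 9.72e-16), 1.47-fold lower in ELK3-labelled than in control libraries (-0.56 ± 0.09, adjusted p = 1.63e-06) and higher in ELK3-labelled than in vector-labelled libraries (0.93 ± 0.09, adjusted p = 2.38e-10). The genes nearest to TFAM in pattern were SEPT11, a septin of the cytoskeleton (distance 0.122), SLCO4A1, an organic anion transporter (0.129), and GEN1, a nuclease that resolves DNA junctions (0.146). TFAM has a copy elsewhere in the genome, TFAMP1, which was listed with 96 to 297 counts per library, and how reads shared between them were counted is not given in the sources used here.

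TFB1M and TFB2M, 2 related proteins with different tasks, parted. TFB1M had 50.57 and 49.86 CPM in the ELK3-labelled, 50.24 and 45.62 CPM in the vector-labelled and 33.88 and 33.55 CPM in the control libraries. TFB2M had 5.41 and 4.68 CPM in the ELK3-labelled, 6.76 and 5.00 CPM in the vector-labelled and 17.36 and 13.76 CPM in the control libraries. For each gene the plasmid groups overlapped and the controls stood apart, on the low side for TFB1M and on the high side for TFB2M. TFB1M was higher than control in ELK3-labelled libraries (0.57 ± 0.12, adjusted p = 0.000112) and in vector-labelled libraries (0.51 ± 0.12, adjusted p = 0.000462). TFB2M was 3.11-fold lower than control in ELK3-labelled libraries (-1.64 ± 0.24, adjusted p = 4.78e-07) and 2.598-fold lower in vector-labelled libraries (-1.38 ± 0.25, adjusted p = 8.24e-06). Between the plasmid groups neither was called (TFB1M 0.06, 95% interval -0.17 to 0.29, and TFB2M -0.26, interval -0.82 to 0.30).

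Each of these genes also has a close neighbour on the other strand. The 3′ end of TFB1M shares 215 exonic bases with TIAM2, a Rac exchange factor. TIAM2 had 19.4 and 18.5 CPM in the ELK3-labelled, 35.55 and 33.42 CPM in the vector-labelled and 12.76 and 15.48 CPM in the control libraries. Like TFB1M, TIAM2 was higher than control in vector-labelled (1.29 ± 0.17, adjusted p = 2.42e-08) and in ELK3-labelled libraries (0.42 ± 0.18, adjusted p = 0.0364). Unlike TFB1M, TIAM2 was lower in ELK3-labelled than in vector-labelled libraries (-0.87 ± 0.15, adjusted p = 5.45e-06). The pair did not keep its ratio (1.37 to 2.70 counts of TFB1M per count of TIAM2). What share of the TFB1M count falls in the shared bases was not tested. TFB2M starts 120 bases from the start of CNST, whose protein binds connexins, and no exonic bases are shared. CNST had 4.61 and 4.15 CPM in the ELK3-labelled, 4.11 and 3.40 CPM in the vector-labelled and 10.67 and 14.41 CPM in the control libraries. Like TFB2M, CNST was lower than control in ELK3-labelled libraries (-1.52 ± 0.26, adjusted p = 6.52e-06) and in vector-labelled libraries (-1.71 ± 0.28, adjusted p = 2.26e-06).

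POLRMT, the RNA polymerase that TFB2M and TFAM serve, was not called in any comparison. It had 9.70 and 10.95 CPM in the ELK3-labelled, 11.60 and 7.40 CPM in the vector-labelled and 11.71 and 12.47 CPM in the control libraries. The vector-labelled libraries were far apart from each other and spanned the ELK3-labelled pair. The difference between vector-labelled and control libraries was -0.31 (95% interval -0.79 to 0.17, adjusted p = 0.233) and passed without vector-labelled replicate 1 (-0.71, adjusted p = 0.0396). ELK3-labelled libraries differed from control by -0.22 (interval -0.67 to 0.24) and from vector-labelled by 0.10 (interval -0.36 to 0.55). The first of these intervals holds the value found for NRF1 in the same comparison.

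The replicating polymerase was lower in its catalytic gene in both plasmid groups and in its accessory gene in 1 of them. POLG, the catalytic subunit, had 49.45 and 46.25 CPM in the ELK3-labelled, 44.36 and 40.62 CPM in the vector-labelled and 76.96 and 81.28 CPM in the control libraries. The controls lay well above the other 4 libraries. POLG was lower than control in ELK3-labelled (-0.73 ± 0.11, adjusted p = 3.84e-07) and in vector-labelled libraries (-0.89 ± 0.11, adjusted p = 1.19e-08). The plasmid groups were not called different (0.16, 95% interval -0.07 to 0.39, adjusted p = 0.213).

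POLG2, which clamps the catalytic subunit to DNA, had 16.7 and 15.84 CPM in the ELK3-labelled, 4.99 and 5.80 CPM in the vector-labelled and 16.52 and 17.85 CPM in the control libraries. Only the vector-labelled libraries were low among the 6. POLG2 was 3.20-fold lower in vector-labelled than in control libraries (-1.68 ± 0.23, adjusted p = 6.15e-08) and higher in ELK3-labelled than in vector-labelled libraries (1.60 ± 0.22, adjusted p = 1.18e-07). ELK3-labelled and control libraries were not called different (-0.08, 95% interval -0.45 to 0.29, adjusted p = 0.711), a value that turned to 0.08 with library totals. POLG shares 431 exonic bases with FANCI, a gene of DNA crosslink repair, whose exons cover 207 bases at the 3′ end of POLG. FANCI had 125.9 and 134.1 CPM in the ELK3-labelled, 70.95 and 60.63 CPM in the vector-labelled and 148.5 and 166.4 CPM in the control libraries. Like POLG, FANCI was lower than control in vector-labelled (-1.25 ± 0.10, adjusted p = 4.51e-13) and in ELK3-labelled libraries (-0.27 ± 0.09, adjusted p = 0.0111). FANCI was higher in ELK3-labelled than in vector-labelled libraries (0.98 ± 0.10, adjusted p = 2.9e-10), where POLG was not called. What share of the POLG count falls in the shared bases was not tested. Without ESRRA, POLG and TFB1M, the 3 genes that share 3′ bases, the counts lower and higher among the other 7 were 5 and 1 for vector-labelled against control, 2 and 0 for ELK3-labelled against control, and 1 and 4 for ELK3-labelled against vector-labelled.

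**Figure D4:**
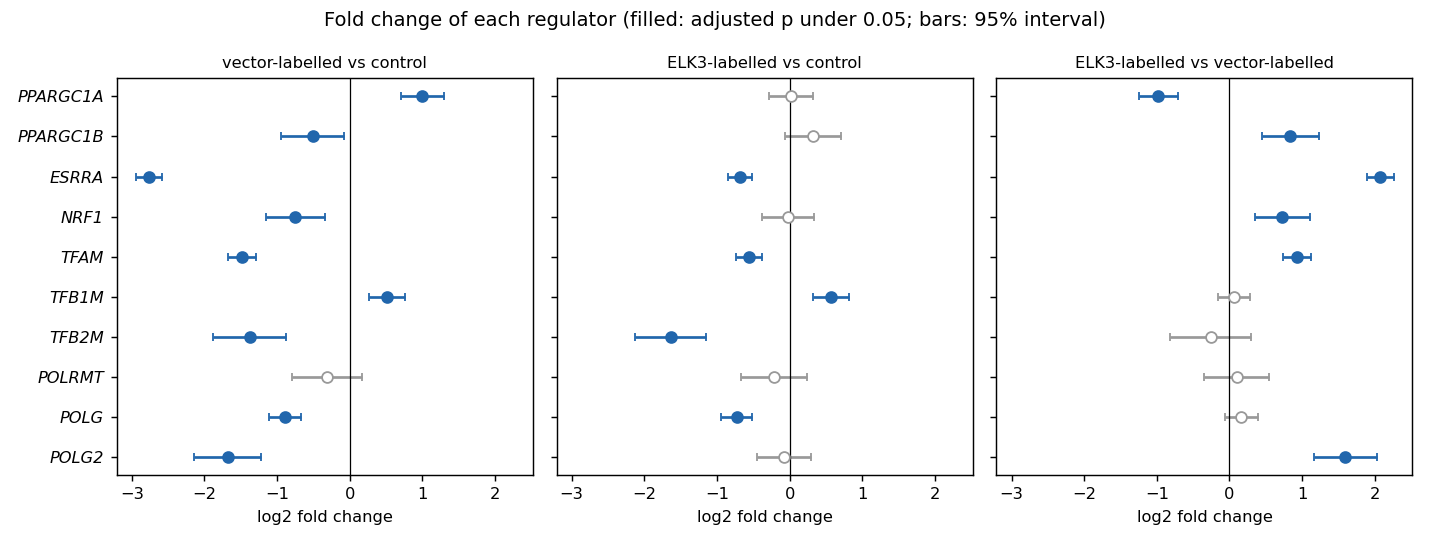
Log2 fold change of each regulator (horizontal axes) in the 3 comparisons, with 95% intervals from the fit; filled points have an adjusted p under 0.05. In vector-labelled against control libraries 7 lie below 0 and called; between the plasmid groups PPARGC1A is the called gene below 0.

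Taking the members by the order of their levels, ESRRA and TFAM had 3 separate levels, with control highest and vector-labelled lowest. POLG2, NRF1 and PPARGC1B had the vector-labelled libraries low, and PPARGC1A had them high, with the other 2 groups not called different. POLRMT had no neighbours called different. POLG, TFB1M and TFB2M had the controls apart and the plasmid groups not called different. No regulator followed the order of ELK3 itself, which was lowest in the ELK3-labelled, intermediate in the control and highest in the vector-labelled libraries, with every neighbouring pair called different. The group means of PPARGC1B had the reverse order, with ELK3-labelled and control libraries not called different.

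The wider machinery was read from lists of related genes, described by counts. Over all tested genes, 35.3% were lower and 37.0% higher in vector-labelled than in control libraries (median 0.05). These shares were 30.8% and 31.8% for ELK3-labelled against control (0.02), and 29.6% and 30.0% for ELK3-labelled against vector-labelled libraries (-0.02). A count near these shares does not set a list apart from all genes. Of 17 genes of mitochondrial DNA replication and repair, 6 were lower and 5 higher in vector-labelled than in control libraries (median -0.11), 8 and 4 in ELK3-labelled than in control libraries (-0.31), and 5 and 7 in ELK3-labelled than in vector-labelled libraries (0.14). C10orf2, which encodes the Twinkle helicase that opens the DNA ahead of POLG, averaged 41.86 ± 3.2 CPM in ELK3-labelled, 23.86 ± 1.34 CPM in vector-labelled and 67.52 ± 1.52 CPM in control libraries (SD, n = 2). C10orf2 was called in all 3 comparisons, at -1.51 ± 0.13 for vector-labelled against control, -0.68 ± 0.11 for ELK3-labelled against control and 0.82 ± 0.13 for ELK3-labelled against vector-labelled libraries, the order of TFAM. SSBP1, the single-strand binding protein of the same replisome, was also lower in vector-labelled than in control libraries (-0.98 ± 0.11). UNG, which removes uracil from DNA, moved the other way, at 0.67 ± 0.09 for vector-labelled against control and -1.03 ± 0.08 for ELK3-labelled against vector-labelled. The count of 5 higher in vector-labelled than in control libraries ran from 2 to 8 between alternatives, and leaving out vector-labelled replicate 2 gave 3 and leaving out control replicate 2 gave 2.

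Of 22 genes of mitochondrial transcription and RNA processing, 13 were lower and 5 higher in vector-labelled than in control libraries (median -0.48). In ELK3-labelled libraries 9 were lower and 5 higher than control (-0.24), and 6 were lower and 11 higher than in vector-labelled libraries (0.24). That count of 6 was 3 without vector-labelled replicate 1, without ELK3-labelled replicate 1 or without ELK3-labelled replicate 2. TBRG4, a FASTK-family protein that stabilises mitochondrial messages, averaged 31.82 ± 1.15 CPM in ELK3-labelled, 11.43 ± 3.08 CPM in vector-labelled and 61.93 ± 1.82 CPM in control libraries (SD, n = 2). TRMT10C, a subunit of the mitochondrial RNase P, was lower in vector-labelled than in control libraries (-1.05 ± 0.12), as was the poly(A)-trimming enzyme gene PDE12 (-1.80 ± 0.18). LRPPRC, which protects mitochondrial messages, was lower in ELK3-labelled than in control libraries (-0.81 ± 0.09), and MTPAP, the mitochondrial poly(A) polymerase, was higher (0.82 ± 0.11). FASTKD5, a FASTK-family gene, was higher in ELK3-labelled than in vector-labelled libraries (1.496 ± 0.14) and SUPV3L1, an RNA helicase, was lower (-1.04 ± 0.11).

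Of 14 genes that supply nucleotides to mitochondria, 4 were lower and 7 higher in vector-labelled than in control libraries (median 0.41), 2 and 4 in ELK3-labelled than in control libraries (0.04), and 5 and 3 in ELK3-labelled than in vector-labelled libraries (-0.29). Without control replicate 1, 1 was lower and 2 were higher in ELK3-labelled than in control libraries, and without ELK3-labelled replicate 2, 3 were lower than in vector-labelled libraries. SLC25A33, a pyrimidine nucleotide carrier, averaged 33.25 ± 5.82 CPM in ELK3-labelled, 47.97 ± 1.78 CPM in vector-labelled and 16.78 ± 3.03 CPM in control libraries (SD, n = 2). Its relative SLC25A36 was higher in vector-labelled than in control libraries (0.93 ± 0.08) and lower in ELK3-labelled than in vector-labelled libraries (-0.69 ± 0.08). DGUOK, the kinase that salvages purine deoxynucleosides, did the reverse, at -0.81 ± 0.10 and 0.88 ± 0.09 in those comparisons.

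Targets known from other work were read in the same way, beside the same shares over all genes. Of 20 genes listed as targets of ERR and PGC-1, 5 were lower and 11 higher in vector-labelled than in control libraries (median 0.36), 5 and 9 in ELK3-labelled than in control libraries (0.10), and 11 and 5 in ELK3-labelled than in vector-labelled libraries (-0.23). The count of 11 lower in ELK3-labelled than in vector-labelled libraries fell to 6 with DESeq2 and also fell without ELK3-labelled replicate 1. The count of 5 lower in ELK3-labelled than in control libraries fell to 3 with library totals and also fell without control replicate 1. ATP5B, the catalytic beta subunit of ATP synthase, averaged 447.1 ± 5.09 CPM in ELK3-labelled, 758.5 ± 1.57 CPM in vector-labelled and 412.5 ± 1.02 CPM in control libraries (SD, n = 2). VDAC1, the pore of the outer membrane, was higher in ELK3-labelled than in vector-labelled libraries (0.78 ± 0.09). Of 15 genes listed as NRF1 targets, 6 were lower and 6 higher in vector-labelled than in control libraries (-0.08), 5 and 4 in ELK3-labelled than in control libraries (0.05), and 4 and 8 in ELK3-labelled than in vector-labelled libraries (0.25). The 5 lower in ELK3-labelled than in control libraries were 3 without control replicate 2, without ELK3-labelled replicate 1, without ELK3-labelled replicate 2 or with DESeq2, and library totals gave 3 lower and 8 higher. The count of 4 lower in ELK3-labelled than in vector-labelled libraries was 7 with a filter of 10 CPM. COX7B, a subunit of cytochrome c oxidase, had log2 fold changes of 1.71 ± 0.09 for vector-labelled against control and -0.92 ± 0.08 for ELK3-labelled against vector-labelled libraries.

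**Figure D5:**
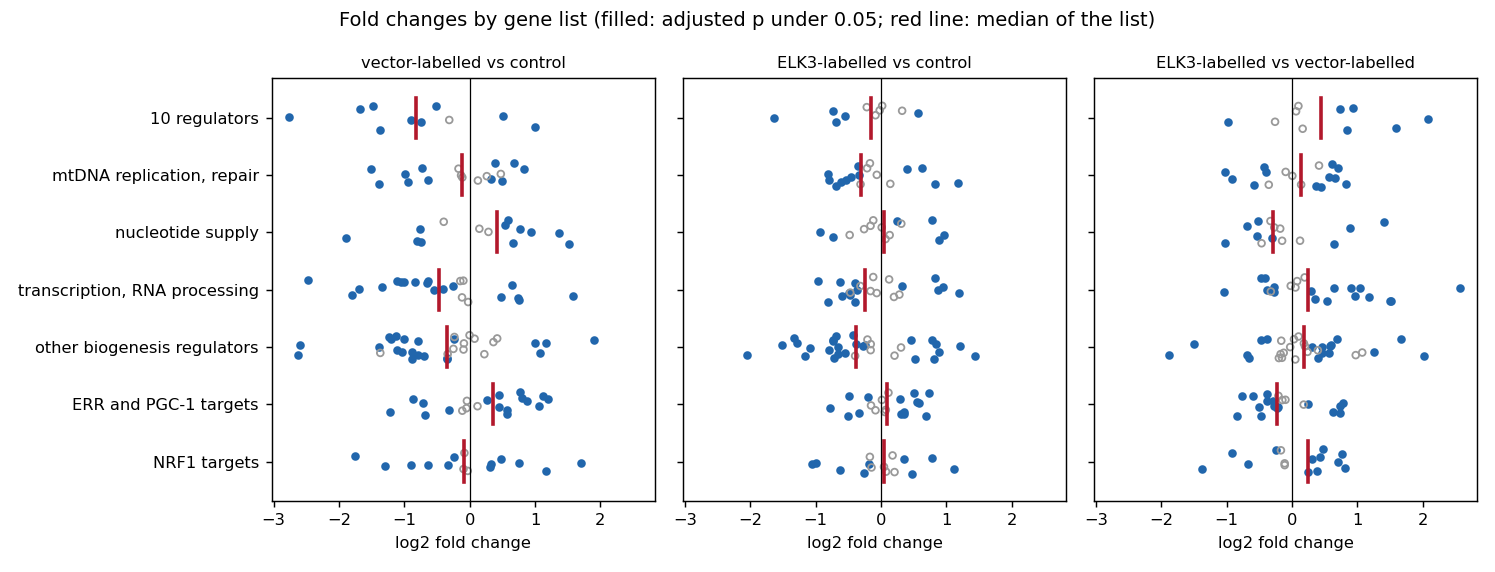
Log2 fold changes of the tested genes (points, horizontal axes) of 7 lists in the 3 comparisons; filled points have an adjusted p under 0.05 and red lines are medians. In vector-labelled against control libraries the median of the 10 regulators lies at -0.82 and that of the ERR and PGC-1 targets at 0.36.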

How the data were processed

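Per the labels' protocols, the 6 libraries were built from total RNA with a kit named Quant-Seq; whether reads were confined to 3′ ends is not settled by the labels. The authors deposited raw counts per gene symbol, 1 library per table, with no scaling; per the submitters' processing notes, Bowtie2, edgeR and the hg19 genome were named, without versions or roles. The counting tool, annotation, strand setting and filters are not given in the sources used here. Each table holds 25737 lines, and the 1561 lines of 286 repeated symbols were summed; no regulator was among them. No molecular identifiers are mentioned; the value given for a count of 3 covers counting error only.

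The fit used edgeR 4.0.16 under R 4.3.3 (filterByExpr, TMM scaling, 1 mean per group over all 6 libraries, robust quasi-likelihood fit, 3 residual degrees of freedom, common biological coefficient of variation 0.0645). Intervals of log2 fold changes use the SE from that fit. Replicates differed by more than sampling noise (chi-square divided by its degrees of freedom, 2.21 to 3.02), so none was counted as a copy. The test was tried on simulated data. Plots used Python 3.11.15, pandas 2.3.3 and matplotlib 3.10.9.

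The regulators, gene lists and tests were chosen with earlier results of these data known. The rule named ELK3, the 10 regulators, up to 3 called genes per list and comparison by smallest p, and the 3 genes nearest to ESRRA and TFAM; some genes that this rule names are not reported here. Neighbours on the genome were added after the values were seen. Alternatives were other scalings, filters and tools (DESeq2 1.42.0, limma-voom with limma 3.58.1), a fit to 4 libraries, a fit without robust estimation, a replicate block and leaving out each library. Gene positions come from GENCODE 29 on GRCh38 and promoters from RefSeq on GRCh38.p14, which differ from the authors' build and were used for neighbours and sequence alone.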

Additional observations from a re-analysis of the deposited data

How the results depend on the processing

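Across 15 alternatives, 434 of 450 values for single regulators kept their direction and side of the threshold, as did 45 of 45 for ELK3. The number of regulators called higher in ELK3-labelled than in control libraries was 1, and 2 with library totals, the added gene being PPARGC1B. Leaving out each library in turn gave 1 to 2 for that count, a constant 2 higher and 6 to 7 lower for vector-labelled against control, a constant 4 lower for ELK3-labelled against control, and a constant 5 higher and 1 lower for ELK3-labelled against vector-labelled; the lone library left in a group was assumed to vary like the others. Without the 3 genes that share 3′ bases with a convergent gene, chosen after seeing the data, 1 was higher in vector-labelled than in control libraries. For ELK3-labelled against control libraries, 0 were then higher and 2 lower. All 3 genes left out had been called there, ESRRA and POLG lower and TFB1M higher. Values that turned sign were all uncalled: NRF1 in ELK3-labelled against control libraries (0.14 under library totals, 0.015 under the 10 CPM filter, and -0.205 to 0.18 when each library was left out, above 0 without control replicate 2 or ELK3-labelled replicate 1), POLG2 there (0.077 under library totals), and, for ELK3-labelled against vector-labelled libraries, POLRMT (-0.147 without vector-labelled replicate 2 and 0.496 without replicate 1), TFB1M (-0.005 under the 10 CPM filter) and TFB2M (0.003 without vector-labelled replicate 1 and -0.425 without replicate 2); the cause was not tested. Library totals moved the median of all genes from 0.05 to 0.18 for vector-labelled and from 0.02 to 0.18 for ELK3-labelled against control libraries, where the share of calls that were higher went from 50.8% to 61.1%. With the replicate number as a block, the counts of regulators higher and lower were 2 and 7, 1 and 4, and 5 and 1, as without it. Deviations of same-numbered libraries correlated at -0.11 (vector-labelled with control), 0.06 (ELK3-labelled with control) and -0.006 (ELK3-labelled with vector-labelled). These low correlations show no pairing by number, but they cannot exclude a weak one. A crossed pairing of vector-labelled and control libraries, added after seeing the data, also gave 2 higher and 7 lower. Depth was lowest for TFB2M, with 25 to 83 counts per library, POLG2, with 29 to 149, and POLRMT, with 37 to 103.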

Other observations

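Other regulators of mitochondrial biogenesis, 34 genes of which 32 were tested, were lower in 17 and higher in 4 for vector-labelled against control libraries (median -0.35), lower in 18 and higher in 8 for ELK3-labelled against control (-0.39), and lower in 6 and higher in 11 for ELK3-labelled against vector-labelled libraries (0.19). Over all genes the shares lower and higher were 35.3% and 37.0%, 30.8% and 31.8%, and 29.6% and 30.0% in those comparisons. SIRT3, the deacetylase of the mitochondrial matrix, averaged 67.63 ± 4.34 CPM in ELK3-labelled, 28.31 ± 0.149 CPM in vector-labelled and 170.7 ± 25.1 CPM in control libraries (SD, n = 2), the order of ESRRA and TFAM. MYC, a driver of growth and biogenesis, averaged 14.59 ± 3.65, 9.28 ± 2.66 and 59.08 ± 2.51 CPM in those groups. TFE3, a factor of lysosomal and mitochondrial gene programmes, was lower in ELK3-labelled than in control libraries (log2 fold change -1.51 ± 0.12).

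The folliculin complex, which acts on AMPK and TFE3 signalling, differed between the plasmid groups. FLCN averaged 29.3 ± 0.511 CPM in ELK3-labelled and 108.4 ± 3.15 CPM in vector-labelled libraries (-1.88 ± 0.11, adjusted p = 2.61e-16), and its partner FNIP1 39.44 ± 2.7 and 110.9 ± 4.41 CPM (-1.497 ± 0.10, adjusted p = 3.78e-14). The AMPK subunit gene PRKAG1 moved the other way, at 74.11 ± 6.76 CPM in ELK3-labelled and 23.6 ± 2 CPM in vector-labelled libraries (1.67 ± 0.12, adjusted p = 1.25e-13). Of 8 muscle markers, 2 were tested: TNNT1, a slow-muscle troponin, averaged 61.5 ± 0.389, 33.03 ± 3.09 and 43.92 ± 8.28 CPM in ELK3-labelled, vector-labelled and control libraries, and MYBPC1, a myosin-binding protein, had 0 to 13 counts per library.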
